A study of Mus musculus with 3 samples.

Results

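The 9 genes followed here are the nuclear receptor gene Ppara and 8 genes commonly read as its hepatic signature: Ppargc1a, Creb3l3, Cpt1a, Aldh3a2, Pex11a, Pdk4, Vnn1 and Fgf21. They were taken by symbol from the 32285 genes of the feature lists and read in barcodes with at least 200 genes and at most 50% mitochondrially encoded counts. The cells were primary hepatocytes from wild-type mice, isolated by collagenase perfusion and sequenced in droplets from the 3′ end, where a unique molecular identifier (UMI) lets each captured transcript be counted once. The ND group ate a normal diet, the HFD group a high fat diet (60%), and the HFD_HDCA group that same high fat diet with 0.25% hyodeoxycholic acid (HDCA), a secondary bile acid, in each case for 12 weeks. Each group had 1 library, so differences between libraries could not be set against a spread between replicates: no p-value is given, and 95% intervals cover counting error alone. The sources used here do not state the age, sex or number of the mice, nor the hour at which the cells were isolated. The series' title names PPARα activation by HDCA, and these genes read that question.

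PPARα, the protein of Ppara, is a receptor that binds fatty acids and fatty acid derivatives and, as a dimer with RXRα, turns on genes for fatty acid uptake, oxidation in mitochondria and peroxisomes, and ketone body production. The liver uses it most in fasting and under fat overload, and fibrate drugs act through it. Its coactivator PGC-1α, from Ppargc1a, and the transcription factor CREB-H, from Creb3l3, work with it on shared targets, and Fgf21 encodes a hormone that the liver secretes in its response.

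After the filter 2776 ND, 2898 HFD and 3000 HFD_HDCA cells remained of 5755, 6290 and 4873 barcodes, with medians of 944.5, 868 and 1116.5 UMIs per cell and 3734740 to 5795200 nuclear-encoded UMIs per library. Any pair of libraries shared 6 to 16 barcodes, of which 1 to 5 passed the filter. All 8 hepatocyte markers were detected in every library, with a summed level of 80994 to 95436 counts per 1000000 nuclear-encoded counts (CPM). Markers of other cell types were present as well. The 11 endothelial markers, all detected in every library, summed to 464, 80.1 and 117 CPM in ND, HFD and HFD_HDCA, and the 10 Kupffer cell markers to 131 to 149 CPM. The 4 red cell markers were at 0 in ND and summed to 342 CPM in HFD and 26.2 in HFD_HDCA. Cells with at least 3 UMIs of the markers of any other type numbered 118, 50 and 68. The balance along the liver lobule also differed, since the 7 pericentral landmark genes summed to 2077, 6383 and 6905 CPM, against 10268, 10429 and 8333 CPM for the 8 periportal ones.

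The stretches below show the sequence before a RefSeq start site of 5 members, in 2 groups by their level in HFD. These groups do not cover every pattern of level among the members. Ppara, Aldh3a2 and Cpt1a were at least 2-fold higher in HFD than in ND, whereas Pdk4 and Fgf21 had few counts and their fewest in HFD. The stretches come from RefSeq on GRCm38.p6, 5′ to 3′, and leave out bases inside annotated exons. Any copy of AGGTCA, the core element of nuclear receptor binding, or of its reverse complement is in capitals. By the GENCODE gene spans given further below, the stretches of Ppara, Aldh3a2 and Cpt1a lie inside the gene, after its outermost start. Only those of Pdk4 and Fgf21 lie outside the gene.
Ppara, chr15:85735714-85735775, + strand: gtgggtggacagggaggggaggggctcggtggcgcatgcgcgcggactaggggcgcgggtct
Aldh3a2, chr11:61267187-61267238, - strand: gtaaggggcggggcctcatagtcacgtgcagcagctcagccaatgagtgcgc
Cpt1a, chr19:3323051-3323284, + strand: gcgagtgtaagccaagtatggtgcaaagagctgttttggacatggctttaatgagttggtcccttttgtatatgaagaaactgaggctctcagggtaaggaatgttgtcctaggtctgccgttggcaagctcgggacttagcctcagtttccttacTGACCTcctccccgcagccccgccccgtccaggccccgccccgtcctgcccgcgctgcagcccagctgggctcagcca
Pdk4, chr6:5496310-5496528, - strand: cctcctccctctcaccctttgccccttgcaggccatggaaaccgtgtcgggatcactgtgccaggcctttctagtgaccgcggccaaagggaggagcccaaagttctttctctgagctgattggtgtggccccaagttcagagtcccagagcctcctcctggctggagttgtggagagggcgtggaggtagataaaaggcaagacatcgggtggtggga
Fgf21, chr7:45615491-45615740, - strand: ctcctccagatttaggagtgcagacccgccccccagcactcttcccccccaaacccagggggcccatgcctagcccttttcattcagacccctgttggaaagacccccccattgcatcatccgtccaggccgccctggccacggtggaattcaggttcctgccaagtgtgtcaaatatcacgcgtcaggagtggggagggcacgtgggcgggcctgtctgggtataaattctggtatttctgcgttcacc
The only capitals lie in Cpt1a, 94 bases before that RefSeq start site and inside the gene span. RefSeq had a window from 250 bases before to 50 after the start for 8 of the 9 members, and the Vnn1 promoter is named only. Over these 9 windows (Creb3l3 has 2), AGGTCA occurred on either strand in that of Cpt1a and in 1 of Creb3l3, both inside the gene span. That is 2 of 9, beside 16.3% of all 32851 windows of that length. A pair of AGGNCA elements in tandem with 1 base between them, the arrangement that PPARα and RXRα dimers bind, occurred in 0 of 9 windows and in 0.381% of all windows. These are matches of letters, not sites, and their absence says nothing about binding elsewhere.

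Of the 9 members, 7 reached a summed count of 100 over the 3 libraries and are called measured. Fgf21 with 69 counts and Pdk4 with 63 did not. In HFD against ND all 7 measured members lay above a log2 ratio of 0, as did 43.4% of measured genes, and 4 were at least 2-fold higher (Ppara, Vnn1, Aldh3a2 and Cpt1a), beside 2.85% of all 7855 measured genes, and 0 were at least 2-fold lower, beside 3.53%. Their median log2 ratio was 1.01, where that of all measured genes was -0.06. In HFD_HDCA against HFD 1 of the 7, Vnn1, was at least 2-fold higher, beside 1.63% of genes, and 0 were at least 2-fold lower, beside 1.48%, with a median of -0.20 against 0.05 for all genes. In that comparison 3 of the 7 lay above 0, beside 56.2% of genes. In HFD_HDCA against ND Vnn1 and Aldh3a2 were at least 2-fold higher, beside 2.62% of genes, 0 were at least 2-fold lower, beside 2.97%, and the median was 0.81 against -0.01. These comparisons share libraries, so each is given by its own values and none supports another. The members were also chosen with earlier results of these data known. The shares of all genes beside them are therefore a description and not an independent test.

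**Figure D1:**
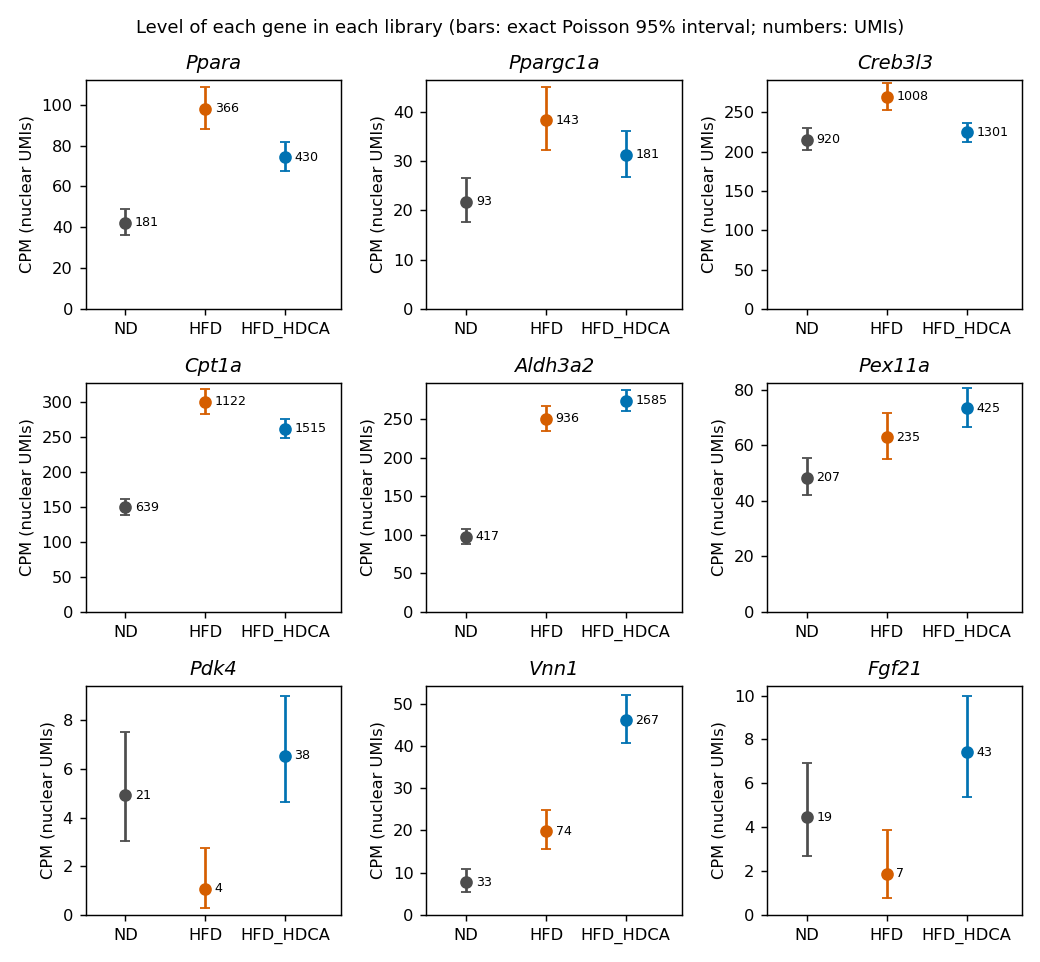
Level of each of the 9 genes in the ND, HFD and HFD_HDCA libraries, in CPM of nuclear-encoded UMIs on a linear axis from 0, with exact Poisson 95% intervals as bars and the number of UMIs beside each point. Ppara, Ppargc1a, Creb3l3 and Cpt1a have their highest point in HFD, Aldh3a2, Pex11a and Vnn1 theirs in HFD_HDCA, and Pdk4 and Fgf21 have their lowest point in HFD.

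Ppara (ENSMUSG00000022383, chromosome 15, 85734983 to 85802819, plus strand, GRCm38), the receptor itself, gave 181, 366 and 430 UMIs in ND, HFD and HFD_HDCA, or 42.3 (36.4 to 49.0), 98.0 (88.2 to 108.6) and 74.2 CPM (67.4 to 81.6). The 3 intervals do not overlap, with ND low, HFD high and HFD_HDCA between them. HFD was 2.31-fold higher than ND (log2 1.21, interval 0.95 to 1.48), above 98.1% of measured genes. HFD_HDCA was 1.32-fold lower than HFD (log2 -0.40, -0.61 to -0.20) and 1.75-fold higher than ND (log2 0.81, 0.56 to 1.07). The transcripts were spread over many cells: they were seen in 164, 314 and 379 cells, no cell held more than 5, and the 10 cells with the most held 11.6%, 7.92% and 6.28% of the UMIs.

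Ppargc1a (chromosome 5, 51454250 to 51567726, minus strand), the coactivator, gave 93, 143 and 181 UMIs in ND, HFD and HFD_HDCA, or 21.8 (17.6 to 26.7), 38.3 (32.3 to 45.1) and 31.2 CPM (26.8 to 36.1). HFD and HFD_HDCA overlapped and both lay above the ND interval. The log2 ratio was 0.81 (0.43 to 1.21) for HFD against ND, within 2-fold, and -0.29 (-0.62 to 0.03) for HFD_HDCA against HFD. With each cell thinned to 500 UMIs the first of these was 1.54, past 2-fold. Creb3l3 (chromosome 10, 81084324 to 81098874, minus strand) encodes CREB-H, a transcription factor of the endoplasmic reticulum membrane that is released by proteolysis and acts on lipid genes. It gave 920, 1008 and 1301 UMIs, or 215 (202 to 230), 270 (253 to 287) and 224 CPM (212 to 237). The ND and HFD_HDCA intervals overlapped and HFD was 1.25-fold above ND (log2 0.33, 0.20 to 0.46). This log2 interval lies below that of Ppara. For HFD_HDCA against HFD it was -0.27 (-0.39 to -0.15), which overlaps that of Ppara.

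Cpt1a (chromosome 19, 3322334 to 3385733, plus strand) encodes the liver carnitine palmitoyltransferase of the outer mitochondrial membrane, which commits long-chain fatty acids to oxidation. It gave 639, 1122 and 1515 UMIs, or 149 (138 to 162), 300.4 (283 to 319) and 261 CPM (248 to 275). ND lay low, and HFD stood above HFD_HDCA without overlap. HFD against ND was 2.01-fold (log2 1.01, 0.87 to 1.15), so the point ratio sits at the 2-fold line with the interval on either side of it, and HFD_HDCA against HFD was -0.20 on the log2 scale (-0.31 to -0.09). With each cell weighted equally in place of summed counts the HFD against ND ratio was 0.92, under 2-fold.

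Aldh3a2 (chromosome 11, 61223417 to 61267464, minus strand), the fatty aldehyde dehydrogenase that oxidises long-chain aldehydes to fatty acids, gave 417, 936 and 1585 UMIs, or 97.6 (88.4 to 107.4), 251 (235 to 267) and 274 CPM (260.2 to 287). Both high fat libraries lay far above ND and their own intervals overlapped. The ratio was 2.57-fold for HFD against ND (log2 1.36, 1.19 to 1.53), 1.09-fold for HFD_HDCA against HFD (log2 0.13, 0.01 to 0.24) and 2.80-fold for HFD_HDCA against ND (log2 1.49, 1.33 to 1.65). Pex11a (chromosome 7, 79735957 to 79743131, minus strand), whose product elongates peroxisomes before they divide, gave 207, 235 and 425 UMIs, or 48.4 (42.1 to 55.5), 62.9 (55.1 to 71.5) and 73.3 CPM (66.5 to 80.7). Neighbouring libraries in that order overlapped and the ends of the order did not. HFD_HDCA against ND was 1.51-fold (log2 0.60, 0.36 to 0.85), and both steps were smaller, at 0.38 (0.10 to 0.65) and 0.22 (-0.01 to 0.46). The sign of the first step turned to -0.23 when each cell was thinned to 500 UMIs.

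Vnn1 (chromosome 10, 23894688 to 23905343, plus strand), the pantetheinase vanin 1 that releases cysteamine and pantothenic acid at the cell surface, gave 33, 74 and 267 UMIs, or 7.72 (5.31 to 10.8), 19.8 (15.6 to 24.9) and 46.1 CPM (40.7 to 51.9). No interval overlapped another. HFD was 2.55-fold above ND (log2 1.35, 0.75 to 1.998), HFD_HDCA a further 2.31-fold above HFD (log2 1.21, 0.84 to 1.61, above 99.0% of measured genes) and 5.89-fold above ND (log2 2.56, 2.05 to 3.15, above 99.6%). The UMIs came from 31, 64 and 225 cells with at most 2, 3 and 4 in any cell. With each cell weighted equally the HFD against ND ratio was 0.86, under 2-fold, while HFD_HDCA against HFD was 1.40. Without the cells that carry markers of other types the Vnn1 ratios were 1.32 and 1.21, and that of Ppara in HFD against ND was 1.20.

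Pdk4 (chromosome 6, 5483351 to 5496309, minus strand), the kinase that switches off pyruvate dehydrogenase and so spares glucose when fat is burnt, gave 21, 4 and 38 UMIs, or 4.91 (3.04 to 7.51), 1.07 (0.29 to 2.74) and 6.56 CPM (4.64 to 9.0). HFD lay below the other libraries without overlap, and ND and HFD_HDCA overlapped. The log2 ratio was -2.06 (-4.20 to -0.63) for HFD against ND and 2.46 (1.14 to 4.56) for HFD_HDCA against HFD. Fgf21 (chromosome 7, 45613886 to 45615490, minus strand), the hormone, gave 19, 7 and 43 UMIs, or 4.44 (2.68 to 6.94), 1.87 (0.75 to 3.86) and 7.42 CPM (5.37 to 9.99). HFD and HFD_HDCA did not overlap, whereas ND overlapped both. Its log2 ratio was -1.18 (-2.74 to 0.07) for HFD against ND and 1.90 (0.82 to 3.38) for HFD_HDCA against HFD. At these counts 3 UMIs are worth 0.702, 0.803 and 0.518 CPM in the 3 libraries, the HFD values rest on 4 cells for Pdk4 and 7 for Fgf21, and neither gene enters the counts of members above.

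**Figure D2:**
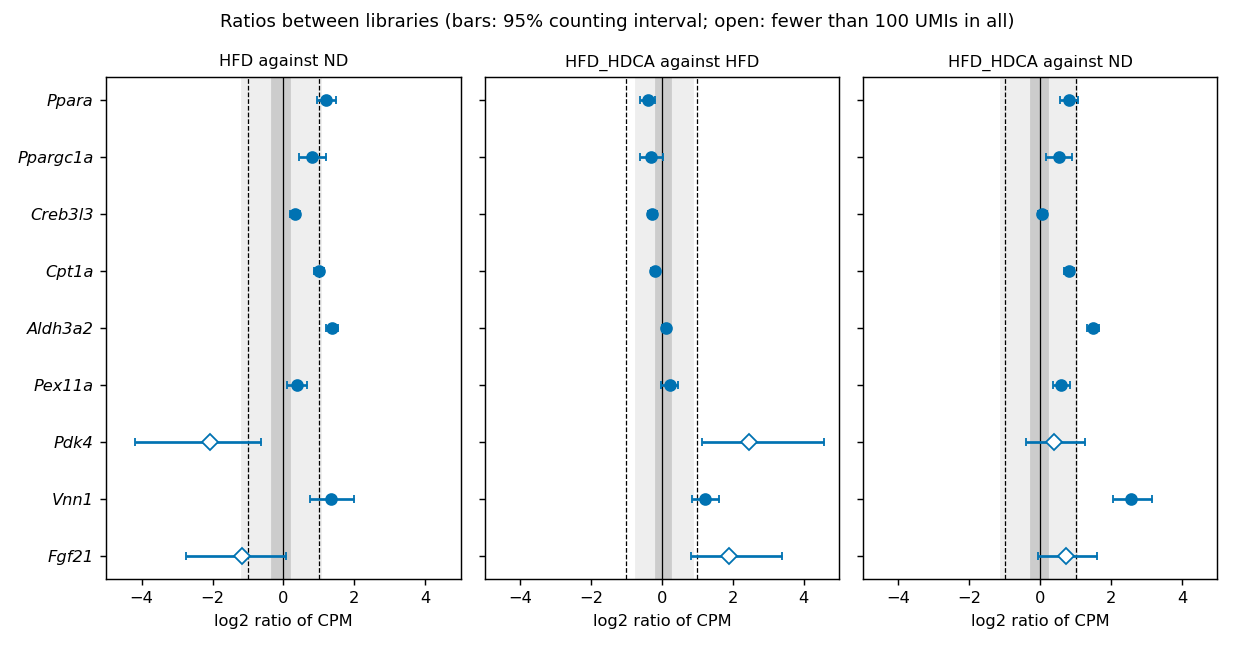
Log2 ratio of CPM for each gene in HFD against ND, HFD_HDCA against HFD and HFD_HDCA against ND, with 95% counting intervals as bars, open diamonds for the genes under 100 UMIs in all, and dashed lines at 2-fold. The dark and light bands behind the points hold the middle 50% and 95% of all measured genes. Ppara, Vnn1, Aldh3a2 and Cpt1a lie at or past the upper line on the left, and of the filled points only Vnn1 does so in the middle.

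The share of cells with at least 1 UMI moves with depth, so each cell was thinned to 500 nuclear-encoded UMIs, which left out 339 ND, 925 HFD and 179 HFD_HDCA cells that were shallower and kept 2437, 1973 and 2821. Ppara was then seen in 2.34% (1.78 to 3.02%), 5.58% (4.60 to 6.68%) and 3.72% (3.05 to 4.49%) of ND, HFD and HFD_HDCA cells, in the same order as its level. At 1000 UMIs its shares were 5.11% (3.89 to 6.57%), 7.90% (6.42 to 9.59%) and 6.66% (5.46 to 8.04%), in that order still but with overlapping intervals. Without thinning these shares were 5.91%, 10.8% and 12.6%, with HFD_HDCA highest, in the library with the deepest cells. At 500 UMIs Cpt1a was seen in 6.61% (5.65 to 7.67%), 13.9% (12.4 to 15.5%) and 11.8% (10.6 to 13.1%), and Aldh3a2 in 6.28% (5.35 to 7.32%), 12.6% (11.1 to 14.1%) and 16.1% (14.8 to 17.5%). For Aldh3a2 HFD_HDCA lay above HFD without overlap, where the summed levels overlapped. More HFD cells were left out, and in HFD the middle and pericentral ranges described below, where Aldh3a2 was higher, were shallower (medians of 593 and 959 UMIs, against 1929 in the periportal range). The part of this in the Aldh3a2 shares was not tested.

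Vnn1 was seen in 0.451% (0.226 to 0.806%), 1.06% (0.660 to 1.62%) and 2.52% (1.97 to 3.16%) of the thinned cells, and Ppargc1a in 0.739% (0.438 to 1.16%), 2.18% (1.58 to 2.92%) and 1.38% (0.985 to 1.89%). Vnn1 in HFD_HDCA stood clear of both other libraries, as it did with thinning to 1000 UMIs, and Ppargc1a in HFD stood clear of ND. At 1000 UMIs Ppargc1a in HFD (3.74%, 2.73 to 4.99%) overlapped ND (2.87%, 1.97 to 4.02%), and HFD_HDCA was lowest at 2.11% (1.45 to 2.97%). Pex11a in HFD_HDCA (6.27%, 5.10 to 7.61%) then stood clear of ND (3.76%, 2.73 to 5.05%). At 500 UMIs Creb3l3 lay between 10.2% and 11.6% and Pex11a between 2.99% and 4.29% in the 3 libraries, with overlapping intervals. Cells carrying at least 3 UMIs of endothelial or Kupffer markers, which hepatocytes should lack, served as background for stray RNA. Pooled over the libraries they numbered 198 after thinning, with a median of 849 to 936.5 nuclear-encoded UMIs before it, beside 927 to 1375 in the other cells. Among them Ppargc1a, Vnn1 and Pex11a were seen in 0 of 198. That allows up to 1.52% with 0 read as 3 cells, and up to 1.85% by the exact interval. Ppara was seen in 1.01% (0.12 to 3.60%) of the marker cells and Creb3l3 in 3.03% (1.12 to 6.48%). Aldh3a2 was seen in 5.56% of them (2.81 to 9.72%) and Cpt1a in 6.57% (3.54 to 11.0%). The ND shares of both genes lay inside these intervals. Whether the marker cells express the members themselves was not tested, and doublets were not removed. A share in marker cells therefore need not be stray RNA, and an ND share inside its interval does not show absent expression. Above the exact interval of this pooled background stood Creb3l3 and Pex11a in every library, Aldh3a2 in HFD and HFD_HDCA, Ppara and Cpt1a in HFD, and Vnn1 in HFD_HDCA. The Ppargc1a interval in HFD (1.58 to 2.92%) overlapped that of its background. Of the pooled cells 106 were from ND, 32 from HFD and 60 from HFD_HDCA, and stray RNA can differ between libraries. Against the marker cells of the same library, Aldh3a2 and Creb3l3 in HFD_HDCA stood clear and no HFD share did: the 32 HFD cells gave 9.38% (1.98 to 25.02%) for both Aldh3a2 and Cpt1a, 3.12% (0.08 to 16.2%) for Creb3l3, and 0 for Ppara and Pex11a with an upper bound of 10.9%. The shares of Vnn1 in ND and HFD, and of Ppargc1a in ND and HFD_HDCA, lay below the limit that 0 background cells allow, and cannot be read as expression from the shares alone. Fgf21 was in 0.101% to 0.425% of cells, and Pdk4 in 0.246% and 0.354% of ND and HFD_HDCA cells. The background of each gene was 0.505% (0.013 to 2.78%), which is 1 of 198 marker cells, from HFD_HDCA. An interval that wide cannot tell shares this low from background. Pdk4 was in 0 of 1973 HFD cells, which allows up to 0.152% with 0 read as 3 cells, and up to 0.187% by the exact interval.

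**Figure D3:**
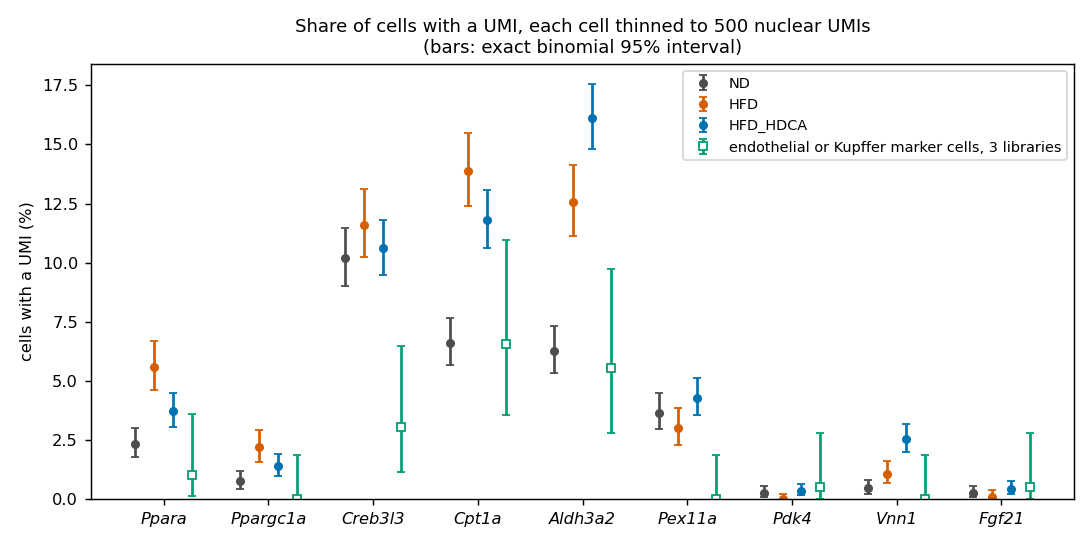
Percent of cells with at least 1 UMI of each gene after thinning every cell to 500 nuclear-encoded UMIs, per library (filled) and in cells with endothelial or Kupffer markers pooled over the 3 libraries (open squares), with exact binomial 95% intervals as bars. Cpt1a and Aldh3a2 show ND beside the open squares (6.57% and 5.56%) and HFD and HFD_HDCA higher. Every Pdk4 and Fgf21 point lies at or below its square, which rests on 1 of 198 cells.

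Few cells showed several members at once at that depth. Cells with UMIs of 2 or more of the 9 members made up 3.16% of ND, 8.26% of HFD and 8.90% of HFD_HDCA cells, and cells with none 72.6%, 59.2% and 58.6%. The mean number of member UMIs per thinned cell was 0.323, 0.551 and 0.549, which places the HFD and HFD_HDCA libraries side by side and ND below them.

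Hepatocytes divide tasks along the lobule, with fatty acid oxidation and urea production toward the portal vein and drug metabolism toward the central vein. Within each library the cells without markers of other types (2658, 2848 and 2932) were ordered by a score, the mean log level of the 7 pericentral landmark genes minus that of the 8 periportal ones, and cut into 3 ranges of equal cell number, called periportal, middle and pericentral. No member is a landmark. The ranges differ in depth, with medians of 2755.5, 757 and 753 UMIs from periportal to pericentral in ND, 1929, 593 and 959 in HFD, and 2792.5, 866 and 1139 in HFD_HDCA. Between 319 and 484 cells a library lie within 0.1 SD of a cut, so the ranges are ranges of a score and not cell types. The cuts were made within each library, so ranges of the same name need not hold the same part of the lobule. Cyp2e1 stood at 76.7 CPM in the periportal range of ND and at 522 in that of HFD. Its ND pericentral level, 4600 CPM, was near its HFD middle level, 4839. This limits every ratio between libraries within a range, and its part in those ratios was not tested.

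Aldh3a2 had a steep gradient in every library. From periportal to pericentral its level ran 15.6, 128 and 272 CPM in ND, 43.1, 325 and 480.3 in HFD, and 91.9, 384 and 483 in HFD_HDCA. The pericentral level exceeded the periportal one by a log2 ratio of 4.11 (3.63 to 4.67), 3.47 (3.12 to 3.85) and 2.39 (2.19 to 2.60), and the HFD_HDCA interval lies below both others. HFD_HDCA was higher than HFD in the periportal range by 1.08 (0.71 to 1.49) and level in the pericentral range at 0.01 (-0.14 to 0.16). Against ND the difference of HFD was 1.46 (0.88 to 2.08) in the periportal range, 1.34 (1.01 to 1.69) in the middle and 0.82 (0.60 to 1.04) in the pericentral range. It was thus present in all 3 ranges while the landmark genes themselves moved between the libraries, and their part in the result was not tested. When cells were thinned to 500 UMIs before scoring, an alternative chosen after seeing the data, the gradient was 2.04 (1.37 to 2.83) in ND, 3.16 (2.47 to 4.02) in HFD and 1.72 (1.32 to 2.15) in HFD_HDCA, so the gradient kept its direction, HFD_HDCA stayed below HFD without overlap, and the ND interval overlapped that of HFD_HDCA.

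Vnn1 and Pex11a were pericentral too. Vnn1 ran 3.37, 8.22 and 19.5 CPM in ND (8, 7 and 18 UMIs), 8.99, 12.4 and 38.7 in HFD (15, 9 and 50 UMIs) and 16.4, 50.8 and 89.8 in HFD_HDCA (45, 59 and 163 UMIs), with pericentral against periportal log2 ratios of 2.48 (1.26 to 3.94), 2.07 (1.25 to 3.04) and 2.44 (1.97 to 2.96). HFD_HDCA lay above HFD in each range, by 0.84 (-0.001 to 1.82), 1.98 (1.02 to 3.24) and 1.21 (0.75 to 1.70). Against ND the log2 ratio of HFD was 1.37 (0.09 to 2.86), 0.57 (-1.01 to 2.25) and 0.97 (0.19 to 1.86) in that order. Of these only the periportal ratio was past 2-fold, on 15 against 8 UMIs. After thinning before scoring the Vnn1 gradient was 1.38, 1.59 and 0.52 with 0 inside each interval, so at equal depth its slope was within counting error. Pex11a ran 25.3, 68.1 and 95.1 CPM in ND, 32.3, 74.1 and 98.2 in HFD and 47.0, 89.6 and 104 in HFD_HDCA, with ratios of 1.91 (1.42 to 2.41), 1.59 (1.13 to 2.09) and 1.14 (0.82 to 1.48). The pericentral levels of the 3 libraries overlapped. In the periportal range HFD_HDCA stood above HFD by 0.53 (0.07 to 1.03), and thinning before scoring left ratios of 1.19, 1.63 and 0.96.

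Ppara itself was mildly higher toward the pericentral end, at 37.9, 43.4 and 56.2 CPM in ND, 77.3, 97.5 and 128 in HFD, and 62.0, 73.3 and 95.3 in HFD_HDCA. The log2 ratios of the ends were 0.57 (0.05 to 1.08), 0.73 (0.39 to 1.08) and 0.62 (0.31 to 0.93), against medians of 0.06 to 0.14 over all measured genes. After thinning before scoring they were -0.08, 0.63 and 0.76, with 0 inside the ND and HFD intervals. HFD was above ND by 1.03 (0.63 to 1.43), 1.16 (0.57 to 1.78) and 1.18 (0.73 to 1.67) in the periportal, middle and pericentral ranges. These ratios were of like size, though a range need not hold the same part of the lobule in both libraries. Cpt1a had 0 inside each interval of its slope, with ratios of -0.15 (-0.45 to 0.13), 0.02 (-0.17 to 0.21) and -0.13 (-0.30 to 0.04), and HFD was above ND by 0.95, 0.99 and 1.12 in its 3 ranges.

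Ppargc1a ran the other way. Its level from periportal to pericentral was 27.0, 11.7 and 20.5 CPM in ND, 61.7, 23.3 and 17.8 in HFD, and 44.9, 19.8 and 19.3 in HFD_HDCA. The log2 ratio of the ends was -0.37 (-1.21 to 0.37) in ND, -1.77 (-2.51 to -1.13) in HFD, below all but 0.942% of measured genes, and -1.20 (-1.80 to -0.67) in HFD_HDCA. The log2 ratio of HFD to ND was 1.19 (0.73 to 1.67) in the periportal range and -0.21 (-1.15 to 0.75) in the pericentral one, and these intervals overlap narrowly. Thinning before scoring gave gradients of 0.00 in ND on 7 UMIs at either end, -3.29 in HFD on 2 against 24, and -1.51 in HFD_HDCA on 6 against 18. For Creb3l3 the ratios were -0.38 (-0.64 to -0.13), -0.17 (-0.38 to 0.04) and -0.19 (-0.38 to -0.01). After thinning before scoring they were -0.70 (-1.18 to -0.23), -0.13 (-0.57 to 0.31) and 0.01 (-0.38 to 0.40), and with Cyp2e1 and Cyp2f2 as the only landmarks the ND interval also held 0.

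For Pdk4 and Fgf21 the ranges hold few UMIs. Pdk4 had 3, 2 and 15 UMIs from periportal to pericentral in ND, 2, 1 and 1 in HFD, and 8, 7 and 20 in HFD_HDCA. The pericentral against periportal log2 ratio was 3.51 (1.86 to 6.11) in ND and 1.87 (0.67 to 3.31) in HFD_HDCA, and the ND value turned to -0.74 (-6.88 to 3.26) on 1 against 2 UMIs after thinning before scoring. Fgf21 had 15, 3 and 1 UMIs in ND, 4, 2 and 1 in HFD, and 21, 12 and 9 in HFD_HDCA, and the interval of its gradient held 0 in every library.

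**Figure D4:**
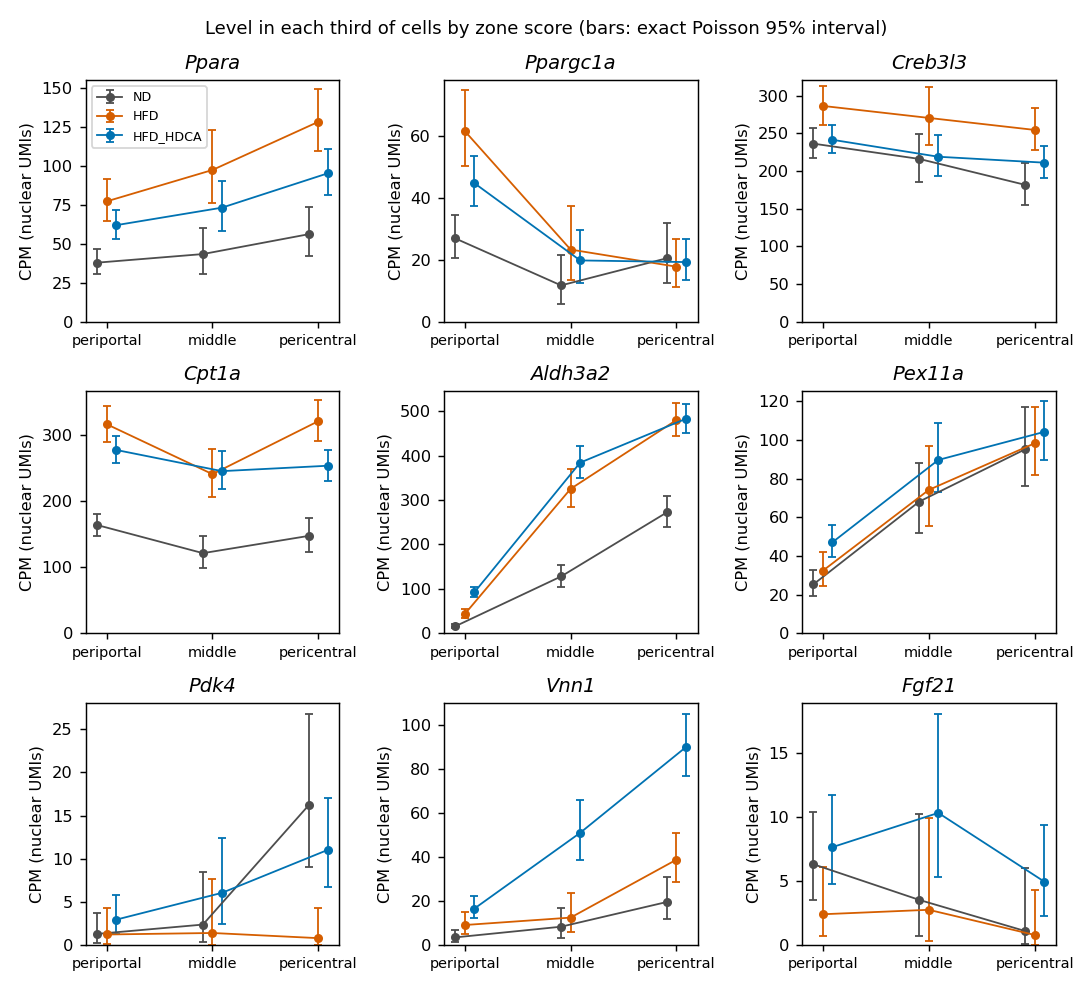
Level of each gene in CPM in the periportal, middle and pericentral range of cells of each library, with exact Poisson 95% intervals as bars; each panel has its own linear axis from 0. Aldh3a2, Vnn1 and Pex11a climb to the right in every library, Ppargc1a is highest at the left in HFD and HFD_HDCA, and the Ppara and Cpt1a lines of HFD and HFD_HDCA run above that of ND in all 3 ranges.

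The genes whose pattern over the 9 sums of cells (3 libraries by 3 ranges) was most like that of Ppara, by Pearson correlation of log2(CPM + 10) among 4591 genes with at least 300 counts, were Rbp4, the plasma retinol carrier (r = 0.97), the replication factor gene Mcm10 (0.97), Adtrp (0.97), the co-chaperone gene Dnaja1 (0.96) and Hsdl2 (0.96). For Vnn1 they were the retinol dehydrogenase gene Rdh9 (0.96), Serpina7, which encodes thyroxine-binding globulin (0.96), Mospd2 (0.95), Ptp4a2 (0.95) and Khdrbs3 (0.94). Of the members, Cpt1a (0.78) and Aldh3a2 (0.70) were more like Ppara than Vnn1 (0.63), Pex11a (0.55), Creb3l3 (0.38) or Ppargc1a (0.01) were. The 9 sums share 3 libraries and their depths, so these values are a description.

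Other PPARα targets were read from a list of 57 genes, of which 51 were measured. In HFD against ND 2 were at least 2-fold higher and 2 lower, beside 2.85% and 3.53% of all measured genes, so near the background, with a median log2 ratio of 0.13 against -0.06. The higher ones were Plin5, a lipid droplet protein gene (21.1, 44.2 and 17.3 CPM in ND, HFD and HFD_HDCA, log2 1.07, 0.69 to 1.46), and Fabp2, a fatty acid binding protein gene (91.9, 236 and 231 CPM, log2 1.36, 1.19 to 1.54). The lower ones were the fatty acid hydroxylase genes Cyp4a12a (308, 105 and 88.7 CPM, log2 -1.54, -1.71 to -1.38) and Cyp4a14 (395, 148 and 611 CPM, log2 -1.41, -1.56 to -1.27), which have close relatives in the Cyp4a cluster, and whether reads were split among them was not tested. Ppara was thus higher in HFD than in ND while Cyp4a14 was lower.

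In HFD_HDCA against HFD 6 of the 51 were at least 2-fold higher and 1 was lower, beside 1.63% and 1.48% of all measured genes, with a median of -0.04 against 0.05. The higher ones were Acot3, a peroxisomal acyl-CoA thioesterase gene (3.04, 3.75 and 43.1 CPM, log2 3.48, 2.75 to 4.42), Cyp4a14 (2.04, 1.91 to 2.17), Cd36, a fatty acid transporter gene that endothelial cells also express, and whose share from such cells was not tested (37.2, 38.8 and 143 CPM, log2 1.88, 1.63 to 2.15), Abcd2, a peroxisomal importer of very long acyl chains (19.7, 11.8 and 41.1 CPM, log2 1.79, 1.33 to 2.30), Acot4, a thioesterase of dicarboxylic acyl-CoA (19.9, 36.4 and 80.9 CPM, log2 1.15, 0.87 to 1.44), and Acsl3, an acyl-CoA synthetase gene (30.6, 39.1 and 82.1 CPM, log2 1.07, 0.80 to 1.35). The lower one was Plin5 (-1.35, -1.73 to -0.99). Vnn1 thus stood with a small group of listed targets that were at least 2-fold higher with HDCA, and the other 44 lay within 2-fold of HFD. Against ND, 6 were at least 2-fold higher in HFD_HDCA and 1 lower, beside 2.62% and 2.97% of genes, with a median of 0.11 against -0.01.

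**Figure D5:**
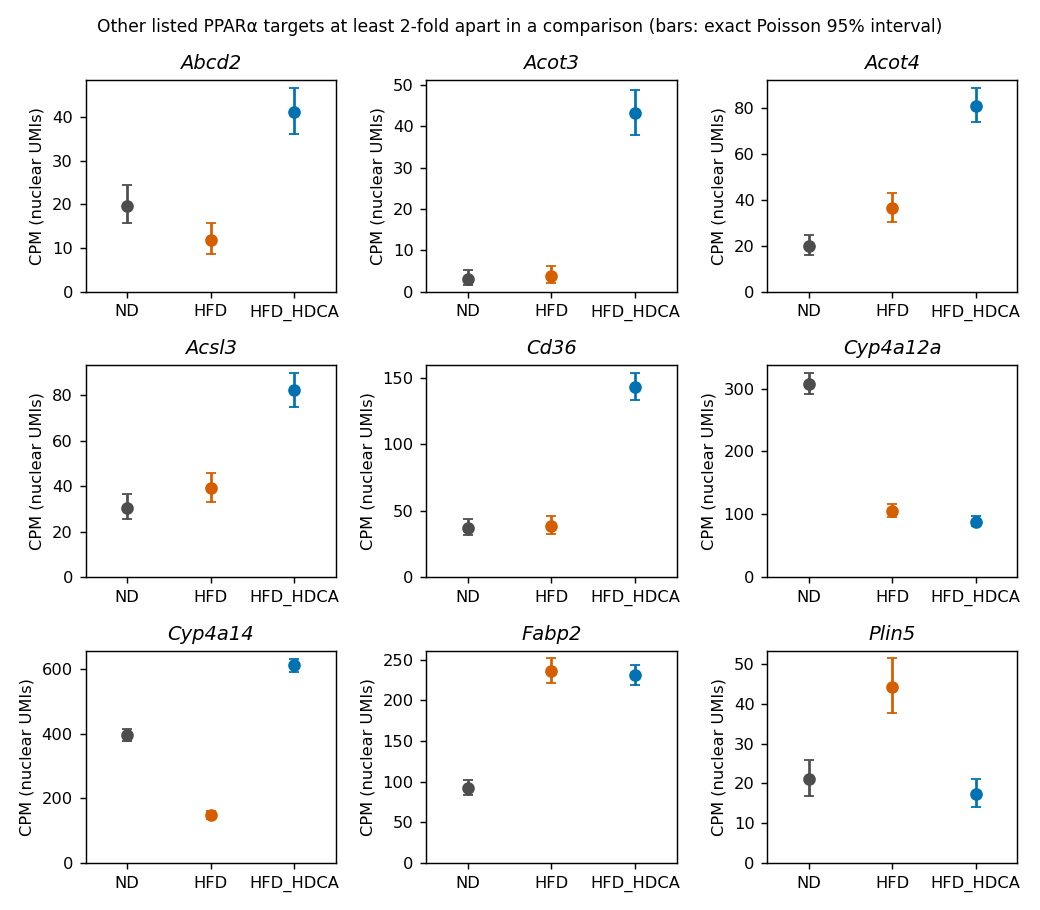
Level in CPM in the ND, HFD and HFD_HDCA libraries of the 9 listed PPARα targets, other than the members, that were at least 2-fold apart in HFD against ND or in HFD_HDCA against HFD, with exact Poisson 95% intervals as bars and linear axes from 0. Abcd2, Acot3, Acot4, Acsl3, Cd36 and Cyp4a14 are highest in HFD_HDCA, Cyp4a12a is highest in ND, and Plin5 is highest in HFD.

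Among 22 partners and coregulators 19 were measured. Rxra, the dimer partner, was 104, 156 and 154 CPM in ND, HFD and HFD_HDCA, with log2 ratios of 0.59 in HFD against ND and -0.02 in HFD_HDCA against HFD. In HFD against ND 1 gene was at least 2-fold higher, Lpin1, which encodes a phosphatidate phosphatase that also acts as a coactivator of PPARα (43.5, 984 and 486 CPM, log2 4.50, 4.29 to 4.72), and 1 was lower, Nrf1, a regulator of nuclear genes for mitochondria (11.9, 2.95 and 8.28 CPM, log2 -1.97, -3.11 to -1.06), so 1 of 19 in either direction beside 2.85% and 3.53% of all measured genes. In HFD_HDCA against HFD both differed the other way, Lpin1 at -1.02 (-1.09 to -0.95) and Nrf1 at 1.44 (0.53 to 2.59). The median of the list was -0.04 and -0.03 in these comparisons, against -0.06 and 0.05 for all measured genes, and 1 of 19 in either direction again stands beside 1.63% and 1.48%. Of 15 near relatives of the members, such as Pex11g, Pdk1, Pdk2, Ppargc1b and Creb3l2, 9 were measured. Of these, 0 were at least 2-fold higher or lower in any comparison, beside 1.48% to 3.53% of all measured genes in each direction, so near the background. Pdk1 and Pdk2, sister kinases of Pdk4, stood at 38.6, 40.2 and 56.9 CPM and at 41.4, 40.7 and 34.3 CPM, each within 2-fold in every comparison.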

How the data were processed

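The deposited matrices held UMI counts per gene and barcode for 3 libraries, which per the file headers come from Cell Ranger 5.0.0. The submitters' processing notes name mm10, and the sources used here do not state how barcodes were chosen. The filter kept cells with 200 genes or more and no more than 50% mitochondrially encoded counts, and doublets were neither called nor removed. Counts were summed per library or zone range, scaled to CPM of nuclear-encoded counts and compared as log2 ratios after adding 0.5 to each count, with exact conditional binomial, Poisson or binomial 95% intervals (Python 3.11.15, numpy 2.4.6, scipy 1.17.1, pandas 2.3.3). A gene was measured from a summed count of 100, and a count of 0 was read as 3. Zone scores used log counts per 10000 in each cell, and thinning used seed 1. The ratio script was tested on simulated data. The members, gene lists and named genes (all members, listed genes at least 2-fold apart, and the 5 genes most like Ppara or Vnn1) were chosen with earlier results of these data known. Alternatives changed the scaling, count minimum, cell filter, cell weights, depth, landmarks and number of ranges. Gene positions came from GENCODE M21 and windows around start sites from RefSeq.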

Additional observations from a re-analysis of the deposited data

How the results depend on the processing

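Of 66 counts of members past 2-fold under other settings, 61 kept the reported value or lay within 1.5 times of it. With each cell weighted equally, 2 members (Ppara and Aldh3a2) were at least 2-fold higher in HFD against ND, beside 256 higher and 377 lower of 7855 genes. With a minimum of 20 counts, and with none, 2 members (Fgf21 and Pdk4) were at least 2-fold lower in HFD against ND and 3 (with Vnn1) at least 2-fold higher in HFD_HDCA against HFD, because these settings admit them. Of 243 library ratios 232 moved by less than their interval and 11 by more, of which only Pex11a in HFD against ND changed sign, to -0.23 after thinning. Of 108 zone ratios 90 stayed within their interval, 17 moved, and Pdk4 in ND reversed to -0.74 after thinning before scoring. Reversed means a change of sign from a ratio of at least 2-fold whose interval left out 0. Ratios outside this rule changed sign as well. Ppara in ND went from 0.57 to -0.08 after thinning before scoring. Fgf21 in HFD went from -1.22 to 0.26 with Cyp2e1 and Cyp2f2 as the only landmarks. Of 54 shares of cells 24 moved, mostly with thinning to 1000 UMIs, a depth at which more cells show a UMI of a gene (Creb3l3 in ND 10.2% at 500 UMIs and 19.4% at 1000). The causes of the other moves were not tested. Genes past 2-fold in all numbered 382 higher and 990 lower in HFD against ND with a minimum of 20 counts (10833 genes), 1378 and 3048 with none, and 157 and 134 of 4240 after thinning. In HFD_HDCA against HFD these were 531 and 298, 1376 and 1419, and 68 and 70, and 197 higher with equal cell weights. In HFD_HDCA against ND they were 392 and 747, 1767 and 2542, and 141 and 132. Median-of-ratios scaling changed the HFD against ND split to 250 higher and 244 lower, and counting mitochondrial UMIs that of HFD_HDCA against HFD to 146 and 105. No paired analysis was possible because each group has 1 library. Depth limits Fgf21 and Pdk4 throughout.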

Other observations

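The barcodes that the filter left out, 2979 in ND, 3392 in HFD and 1873 in HFD_HDCA, had a median of 81.6% to 84.9% mitochondrially encoded counts and 430859 to 568579 nuclear-encoded UMIs in all. They are separate barcodes of the same libraries. In them Ppara gave 19, 34 and 28 UMIs, a log2 ratio of 1.07 (0.23 to 1.97) for HFD against ND. Aldh3a2 was at 1.13 (0.71 to 1.57), Cpt1a at 1.09 (0.60 to 1.61), Creb3l3 at 0.04 (-0.31 to 0.38) and Vnn1 at 1.96 (0.20 to 4.60) on 11 against 3 UMIs. For HFD_HDCA against HFD Vnn1 was at 0.68 (-0.50 to 1.95) and Ppara at -0.12 (-0.90 to 0.64), so those differences were not detectable in these barcodes. For HFD_HDCA against ND Vnn1 was at 2.64 (1.01 to 5.24) on 16 against 3 UMIs and Aldh3a2 at 1.41 (0.99 to 1.84).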
